A study of Rattus norvegicus with 6 samples.

Results

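Insulin and insulin-like growth factor (IGF) signalling was examined in the rat hippocampus through 10 genes: the ligand Igf1, the receptors Igf1r, Insr and Igf2r, the adaptors Irs1 and Irs2, and the binding proteins Igfbp3, Igfbp4, Igfbp5 and Igfbp6. All non-control probes whose RefSeq accession leads to 1 of these symbols were taken, which gave 13 of the 30367 probes on the array and 10 of the 15154 genes that could be named. Igf1, Insr and Irs1 had 2 probes each and the other genes 1. The study compared hippocampal RNA of 3 orchidectomized and 3 sham-operated male Wistar rats on Agilent 1-colour arrays, 1 array per animal. Surgery was done at 2 months of age, and tissue was taken 2 weeks later under ketamine and medetomidine anaesthesia. The 2 groups shared strain, sex, housing and anaesthesia and differed in the removal of the testes, the main source of testosterone. The labels call the samples biological replicates and name no further treatment, hormone replacement or hormone level.

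Insulin and IGF1 bind related receptor tyrosine kinases on neurons and glia, which pass the signal through the Irs adaptors to the PI3K-Akt and Ras-MAP kinase branches. Akt in turn keeps FoxO transcription factors out of the nucleus, and the secreted binding proteins hold IGFs away from their receptors or carry them. In the hippocampus the pathway is known for roles in neuronal survival, adult neurogenesis, synaptic plasticity and glucose handling.

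Promoter sequences are shown for 3 genes whose signal stood apart on 1 control array described further on, Igf2r and Igfbp3 above the other arrays and Igfbp6 below them. Each is the 250 bases before the annotated start in the RefSeq table of the GRCr8 build, 5′ to 3′ on the gene's strand, with matches to the searched motifs in capitals. Igf2r lies on the plus strand at chr1:50526628-50526877, Igfbp3 on the minus strand at chr14:86277945-86278194 and Igfbp6 on the plus strand at chr7:135154669-135154918.
Igf2r: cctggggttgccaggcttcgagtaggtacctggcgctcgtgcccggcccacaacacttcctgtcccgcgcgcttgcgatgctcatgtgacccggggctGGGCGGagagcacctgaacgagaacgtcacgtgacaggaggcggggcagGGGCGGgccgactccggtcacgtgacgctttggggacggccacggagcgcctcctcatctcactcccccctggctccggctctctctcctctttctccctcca
Igfbp3: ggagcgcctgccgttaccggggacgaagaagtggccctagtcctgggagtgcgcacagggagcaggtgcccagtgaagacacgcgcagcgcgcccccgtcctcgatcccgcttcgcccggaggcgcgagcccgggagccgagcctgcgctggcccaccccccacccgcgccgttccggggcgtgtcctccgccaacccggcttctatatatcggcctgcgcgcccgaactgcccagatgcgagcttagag
Igfbp6: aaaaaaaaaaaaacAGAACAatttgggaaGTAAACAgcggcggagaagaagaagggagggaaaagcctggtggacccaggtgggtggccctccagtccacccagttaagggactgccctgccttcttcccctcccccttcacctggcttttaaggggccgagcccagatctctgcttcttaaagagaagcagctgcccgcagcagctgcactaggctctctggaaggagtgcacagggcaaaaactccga

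Motifs were searched on both strands, namely the GC box GGGCGG, the half-site AGAACA of the androgen and glucocorticoid receptors, and the FoxO motif TGTTTAC. Igf2r held 2 GC boxes and had 68.0% G and C, Igfbp3 held none of the motifs at 71.6%, and Igfbp6 held 1 half-site and 1 FoxO match, the latter on the opposite strand, at 54.8%. Of the 9 member genes in the table, 3 held a GC box, 2 the half-site and 2 the FoxO motif. For Igf1, Igf1r and Insr only 0, 40 and 0 bases of the window lay before the gene's whole annotated span. The half-site count includes Igf1, the GC box count Igf1r and the FoxO count Insr. The background was not limited by span either. Among all 33469 promoters of this length the shares were 30.5%, 17.5% and 3.21%. A match describes the letters in this window and no more. Irs2 was not in the table.

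Values are log2 processed signals minus the 75th percentile of the same array, so that 0 is the level below which 75% of its probes lie. They compare arrays for 1 probe and not 1 gene with another, since probes differ in brightness per RNA molecule. Between 23785 and 26173 probes per array were well above background by the scanner software's flag, and all 13 member probes were so on all 6 arrays, none of them saturated. One control array stood apart from the other 5. Over all probes the array labelled sham 2 correlated with the others at Pearson's r of 0.876 to 0.880, against 0.983 to 0.993 among the other 5 (a description across probes, which are not independent replicates). On it the 10 choroid plexus markers had a median 9.25 log2 units above the other arrays, and 9 of 10 were over 1 log2 unit higher. Their summed linear signal was at least 273.9 there, with 5 of the 10 saturated, against 20.9 to 37.8 on the orchidectomized arrays and 8.23 to 11.9 on sham 1 and sham 3. On the other 5 arrays Ttr alone, saturated on orchidectomized 1, made up 93.2% to 98.3% of that sum. The 9 markers other than Ttr summed to at least 238.2 on the array labelled sham 2, to 0.353 to 0.949 on the orchidectomized arrays and to 0.807 and 0.272 on sham 1 and sham 3. The 7 glutamatergic neuron markers were all over 1 log2 unit lower on it, with a summed signal of 0.116 against 11.7 to 17.8 on the other 5 arrays. Only 4 of these 7 were well above background there, and the 5 genes of hippocampal fields were all lower as well. Of 4 ependyma markers 3 were over 1 log2 unit higher on that array and 0 over 1 unit lower. Their summed signal was 36.1 there against 0.703 to 1.42 on the other 5 arrays. Of 6 meninges and fibroblast markers 4 were higher and 0 lower by that measure, with a sum of 15.1 against 1.99 to 2.95. The labelled tissue was thus borne out by its markers on 5 arrays and not on the array labelled sham 2. The member differences are therefore given on all 6 arrays and without it. In such bulk RNA, fewer cells of a type and less RNA per cell cannot be told apart.

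No member gene passed the test between orchidectomized and sham rats. On 6 arrays 0 of 13 member probes had an adjusted p under 0.05 by limma, where 0% of all 24634 tested probes did. None reached an unadjusted p under 0.05 either, against 0.731% of all tested probes (180 probes). Without the array labelled sham 2 the member counts were again 0 and 0 of 13, against 0% of 25212 tested probes at the adjusted threshold and 2.71% (682 probes) unadjusted. The members' limma adjusted p ran from 0.774 to 0.965 on 6 arrays and was 0.988 for all 13 without that array. Over the 10 genes, each by its brightest probe, the median difference, orchidectomized minus sham, was -0.23 log2 on 6 arrays and -0.09 without sham 2, beside -0.02 over all tested probes in both comparisons. Higher values in orchidectomized rats were seen for 3 probes and lower for 10 on 6 arrays, and for 5 and 8 without sham 2. Over all tested probes 51.6% were lower on 6 arrays and 55.1% without sham 2. Leaving out that 1 array moved the median standard error of the member differences from 0.38 to 0.17 log2. An exact permutation test of a single value could not go below p = 0.1 for 3 against 3 arrays.

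**Figure D1:**
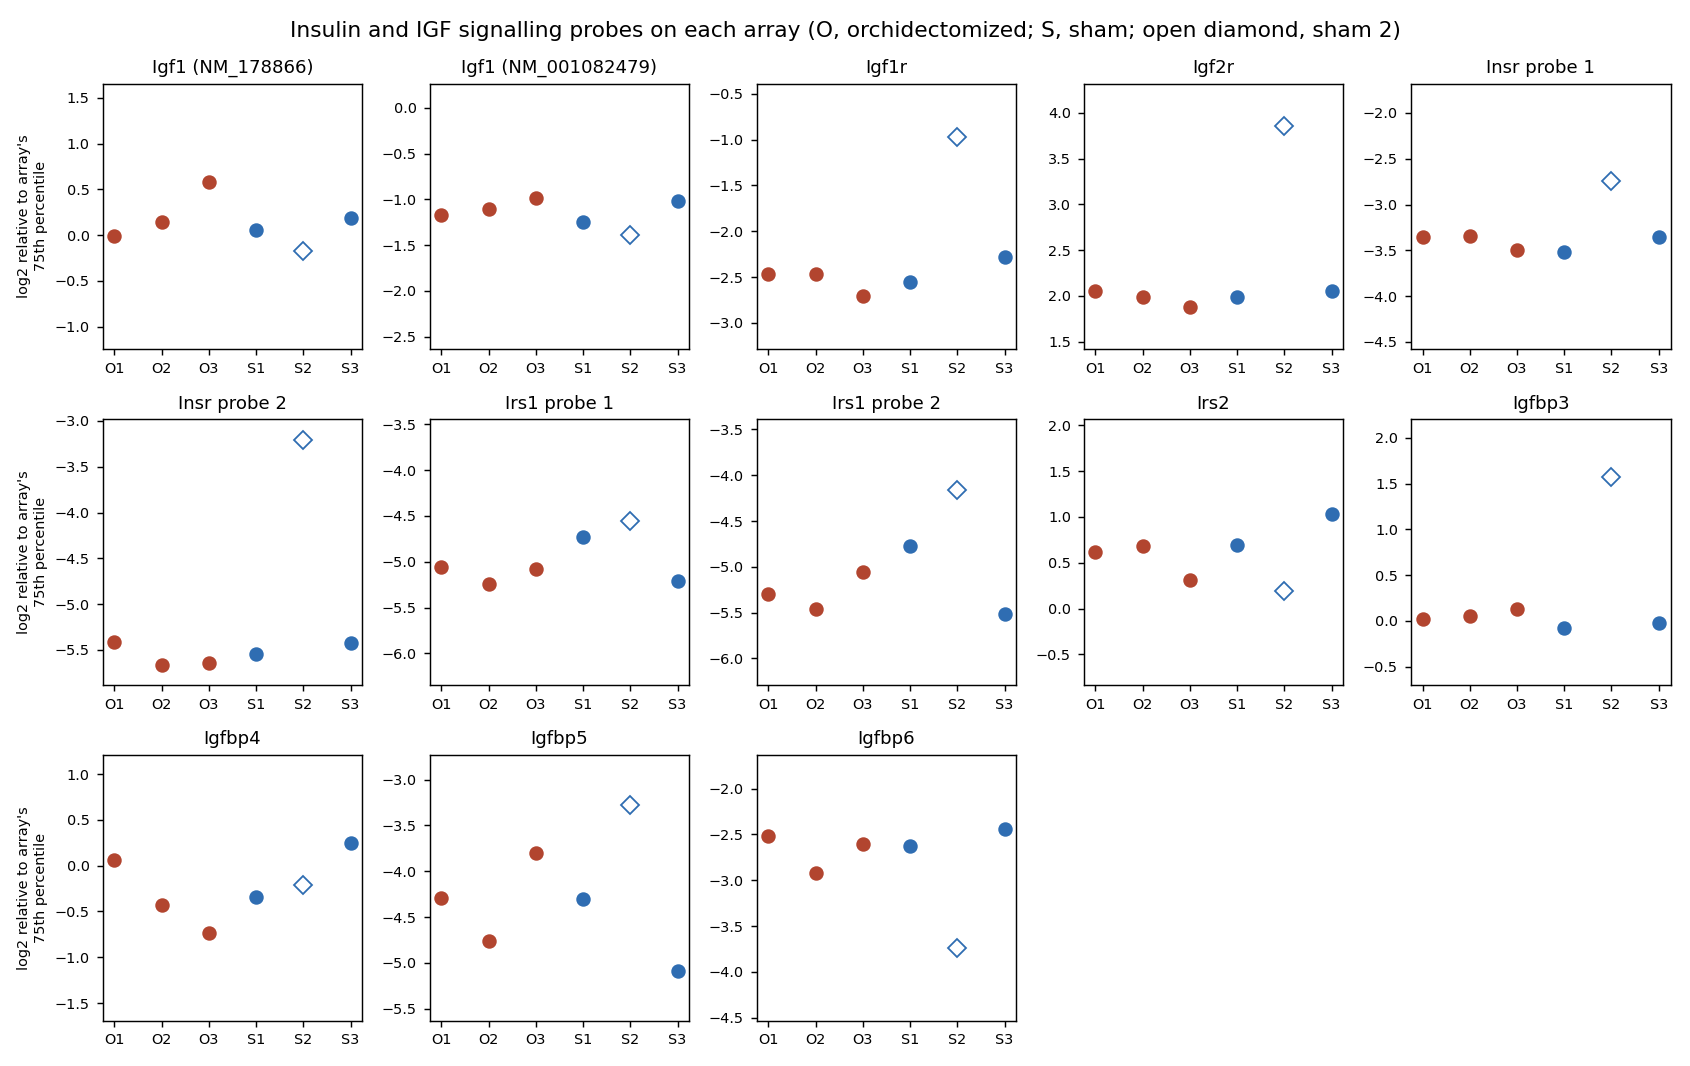
Log2 signal relative to the 75th percentile of each array for each of the 13 member probes, 1 point per array (O, orchidectomized; S, sham; open diamond, the array labelled sham 2). The vertical axes differ in level but have the same length, and the array labelled sham 2 lies apart in most panels, with a distance to the median of the other arrays of 1.87 log2 units for Igf2r and -1.14 for Igfbp6.

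Igf1, the growth factor made in brain by neurons and glia as well as by the liver, did not differ beyond its spread. Its brighter probe (NM_178866) read -0.01, 0.14 and 0.58 in orchidectomized 1 to 3 and 0.05, -0.17 and 0.19 in sham 1 to 3. The highest value came from orchidectomized 3 and the lowest from the array labelled sham 2, and the groups overlapped. The difference was 0.22 log2 (SE 0.23, adjusted p = 0.774 by limma) on 6 arrays. Without sham 2 the means were 0.24 ± 0.31 (SD, n = 3) and 0.12 ± 0.10 (SD, n = 2), a difference of 0.12 log2 with a 95% interval from -0.40 to 0.63, or 0.76-fold to 1.55-fold. A second probe, named from another Igf1 transcript (NM_001082479), read -1.17, -1.11 and -0.98 against -1.25, -1.39 and -1.02. It gave smaller differences of the same sign, 0.13 log2 (SE 0.19) on 6 arrays and 0.05 (SE 0.14) without sham 2.

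Igf1r, the receptor tyrosine kinase for IGF1, was measured by 10 spots of 1 probe per array, whose SD within an array was 0.030 to 0.065 log2. The spot mean was -2.47, -2.46 and -2.70 in orchidectomized 1 to 3 and -2.56, -0.97 and -2.28 in sham 1 to 3. The array labelled sham 2 was 1.50 log2 units (2.82-fold) above the median of the other 5, which spanned 0.42. On 6 arrays the difference was -0.61 log2 (SE 0.45, adjusted p = 0.774 by limma). Without that array it was -0.13 (SE 0.16), with means of -2.55 ± 0.14 (SD, n = 3) and -2.42 ± 0.20 (SD, n = 2) and an interval of 0.70-fold to 1.20-fold.

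Insr encodes the insulin receptor. Its brighter probe read -3.35, -3.34 and -3.50 in orchidectomized rats and -3.52, -2.74 and -3.36 in sham rats, and the dimmer read -5.42, -5.66 and -5.65 against -5.55, -3.20 and -5.43. Both were highest on the array labelled sham 2, by 0.62 and 2.34 log2 units over the median of the other 5, so that the probes disagreed in size on that array (1.54-fold and 5.08-fold). Without it they disagreed in sign, with differences of 0.04 (SE 0.13) and -0.09 (SE 0.14) log2. The interval of the brighter probe ran from 0.82-fold to 1.30-fold. On 6 arrays the differences were -0.19 (SE 0.26) and -0.85 (SE 0.66) log2. Both limma intervals included 0 in both comparisons.

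Igf2r, the mannose-6-phosphate receptor that takes up IGF2 for breakdown and sorts lysosomal enzymes, varied little outside 1 array. It read 2.06, 1.98 and 1.88 in orchidectomized rats and 1.99, 3.86 and 2.05 in sham rats. The other 5 arrays lay within 0.18 log2 units of each other, and the array labelled sham 2 was 1.87 units (3.66-fold) above their median. The difference was -0.66 log2 (SE 0.54) with it and -0.05 (SE 0.13) without it. The latter interval ran from 0.78-fold to 1.21-fold.

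Irs1 and Irs2 are the adaptors that receptor kinases phosphorylate first. Irs1 read -5.06, -5.24 and -5.07 in orchidectomized rats and -4.73, -4.55 and -5.21 in sham rats on its brighter probe. A second probe of 10 spots read -5.30, -5.46 and -5.06 against -4.77, -4.16 and -5.52, with 8 to 10 usable spots and a spot SD of 0.078 to 0.160. Sham 3 was the lowest or next to lowest array on both, so the groups overlapped. The differences were -0.29 (SE 0.23) and -0.45 (SE 0.38) log2 on 6 arrays and -0.15 (SE 0.18) and -0.13 (SE 0.26) without the array labelled sham 2.

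Irs2 read 0.61, 0.69 and 0.31 in orchidectomized 1 to 3 and 0.69, 0.20 and 1.03 in sham 1 to 3. Here the array labelled sham 2 was the lowest of all 6, by 0.49 log2 units under the median of the others. Without it every orchidectomized value lay below both sham values, orchidectomized 2 only just below sham 1. The means were 0.54 ± 0.20 (SD, n = 3) and 0.86 ± 0.24 (SD, n = 2), a difference of -0.33 log2 (SE 0.18, 0.58-fold to 1.09-fold). The unadjusted p of 0.128 was the smallest of the members, and the limma adjusted p was 0.988. On 6 arrays the groups overlapped and the difference was -0.11 (SE 0.28).

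Groups that did not overlap were no more frequent among the members than over the whole array. On 6 arrays 0 of 13 member probes had separate groups, against 8% of all tested probes. Without the array labelled sham 2 there were 2 of 13, Irs2 lower and Igfbp3 higher, against 16.3%.

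Igfbp3, the main carrier of IGFs in blood, read 0.02, 0.05 and 0.13 in orchidectomized rats and -0.08, 1.58 and -0.03 in sham rats. The array labelled sham 2 exceeded the median of the other 5 by 1.56 log2 units (2.94-fold) and gave the 6-array difference its sign, -0.43 log2 (SE 0.48). Without it the means were 0.07 ± 0.06 (SD, n = 3) and -0.05 ± 0.04 (SD, n = 2), and the difference was 0.12 log2 (SE 0.12, 0.88-fold to 1.34-fold, unadjusted p = 0.375, adjusted p = 0.988 by limma). The difference was thus no larger than its standard error.

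Igfbp4, which holds IGFs until it is cleaved by pappalysins, overlapped between the groups in both comparisons. Values were 0.06, -0.42 and -0.73 in orchidectomized rats and -0.35, -0.21 and 0.24 in sham rats. It was the single member probe for which the array labelled sham 2 lay within the range of the other 5. The difference was -0.26 log2 (SE 0.29) on 6 arrays and -0.31 (SE 0.29) without sham 2, with an interval of 0.49-fold to 1.33-fold.

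Igfbp5, a binding protein that also attaches to extracellular matrix, had the largest SD of the members in both groups once the array labelled sham 2 was left out. It read -4.29, -4.76 and -3.80 in orchidectomized rats and -4.30, -3.28 and -5.09 in sham rats. The lowest value, sham 3, and the highest, the array labelled sham 2, both belonged to the sham group. The difference was -0.06 log2 (SE 0.52) on 6 arrays and 0.41 (SE 0.36) without sham 2, the widest interval of the members in that comparison, from 0.72-fold to 2.45-fold.

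Igfbp6, which prefers IGF2 to IGF1, read -2.52, -2.92 and -2.60 in orchidectomized rats and -2.63, -3.73 and -2.44 in sham rats. Unlike Igfbp3 and Igfbp5 it was lower on the array labelled sham 2, by 1.14 log2 units (2.20-fold) under the median of the others. The difference was 0.25 log2 (SE 0.39) with that array and -0.15 (SE 0.17, 0.67-fold to 1.21-fold) without it.

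**Figure D2:**
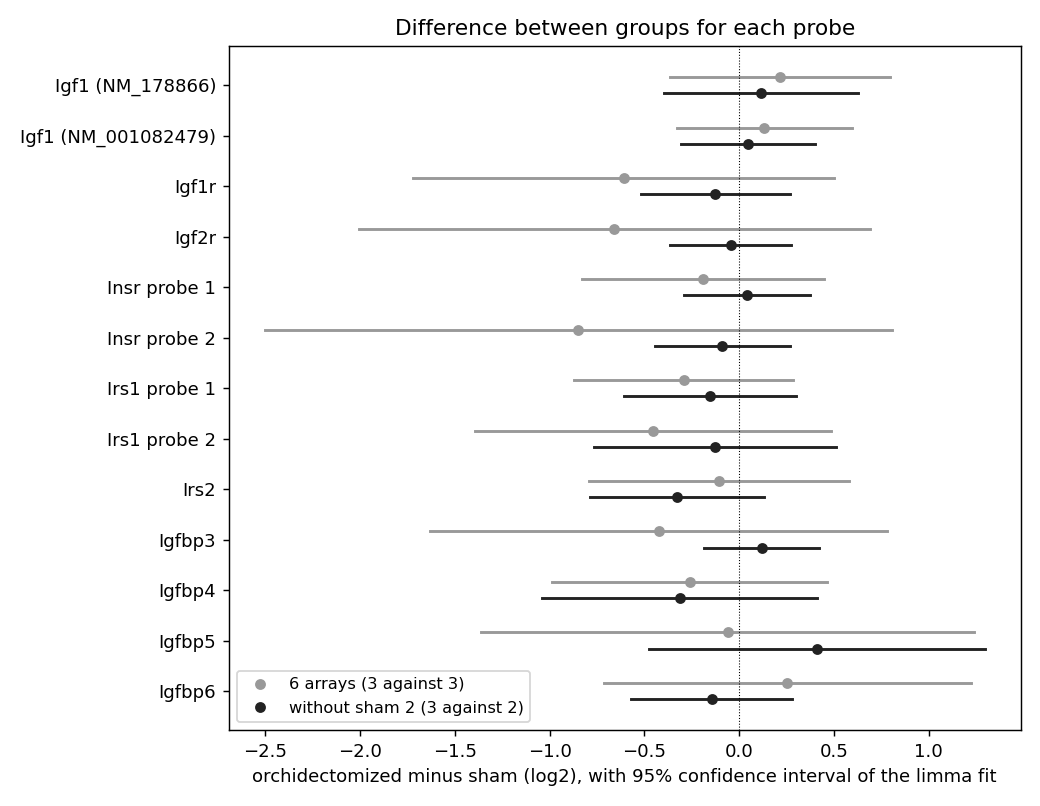
Difference between orchidectomized and sham means in log2 units for each of the 13 member probes, with 95% intervals from limma, for all 6 arrays and without the array labelled sham 2. All intervals include 0 in both comparisons, and without that array the differences lie between -0.33 and 0.41.

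The 6 arrays came from 4 slides and 2 scan days, and group and scan day were partly bound together. Slide 2 held orchidectomized 3 and sham 1, and scan day 1 held all orchidectomized arrays with sham 1, so that within either the sham group is sham 1 alone. The values within them are given as a description. On slide 2 orchidectomized 3 minus sham 1 was 0.53 log2 for Igf1, -0.15 for Igf1r, -0.11 for Igf2r and 0.02 for the brighter Insr probe. The same difference was -0.34 for Irs1, -0.39 for Irs2, 0.21 for Igfbp3, -0.39 for Igfbp4, 0.50 for Igfbp5 and 0.03 for Igfbp6. Within scan day 1 the orchidectomized mean minus sham 1 was -0.16 for Irs2, 0.14 for Igfbp3 and 0.01 for Igf1r. It was -0.02 for Igfbp4, 0.02 for Igfbp5, -0.01 for Igf2r and -0.05 for Igfbp6. For the brighter probes of Igf1, Insr and Irs1 it was 0.18, 0.12 and -0.39. These 4 arrays are also in the comparison without sham 2, so the values are not independent of it.

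On the array labelled sham 2 alone, 8 of the 13 member probes lay above all 5 other arrays, 4 below all of them and 1 within their range. Over all tested probes 80.5% lay outside the range of the other 5. Distances below are taken to the median of those 5. Over 1 log2 unit above that median were 6 member probes, those of Igf1r, Igf2r, Igfbp3, Igfbp5 and the second probes of Insr and Irs1, against 18.8% of all tested probes. One, of Igfbp6, was over 1 unit below, against 24%. The median absolute distance was 1.02 log2 units for members and 0.80 for all tested probes. This is 1 array and carries no test. The choroid plexus and neuron marker sums given above moved with these values, and their part in them was not tested.

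On the array labelled sham 2, the other ligand and binding protein genes named here ranged from far above the median of the other arrays to 1.40 log2 units below it. Igf2, which in brain is made largely by choroid plexus and meninges, read 1.11, 1.18 and 0.84 in orchidectomized rats and 1.01, 5.28 and 0.33 in sham rats. The value on the array labelled sham 2 was saturated and at least 19.3-fold above the median of the other 5. Igfbp2, a binding protein abundant in cerebrospinal fluid, read 0.25, 0.12 and -0.14 against -0.27, 5.25 and -0.81 on its brighter probe. It was likewise saturated on that array, at least 41.9-fold above the median of the others, and at least 63.7-fold on its second probe. Ins2 was 1.36 log2 units above and Ins1 1.40 units below, Igfbp7 was 0.66 above and Igfbp1 0.25 below. Igfbpl1, a related gene named after its values were seen, was 6.29 units (78.1-fold) above, and Igfals, which stabilises IGF complexes in blood, was 0.09 above.

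**Figure D3:**
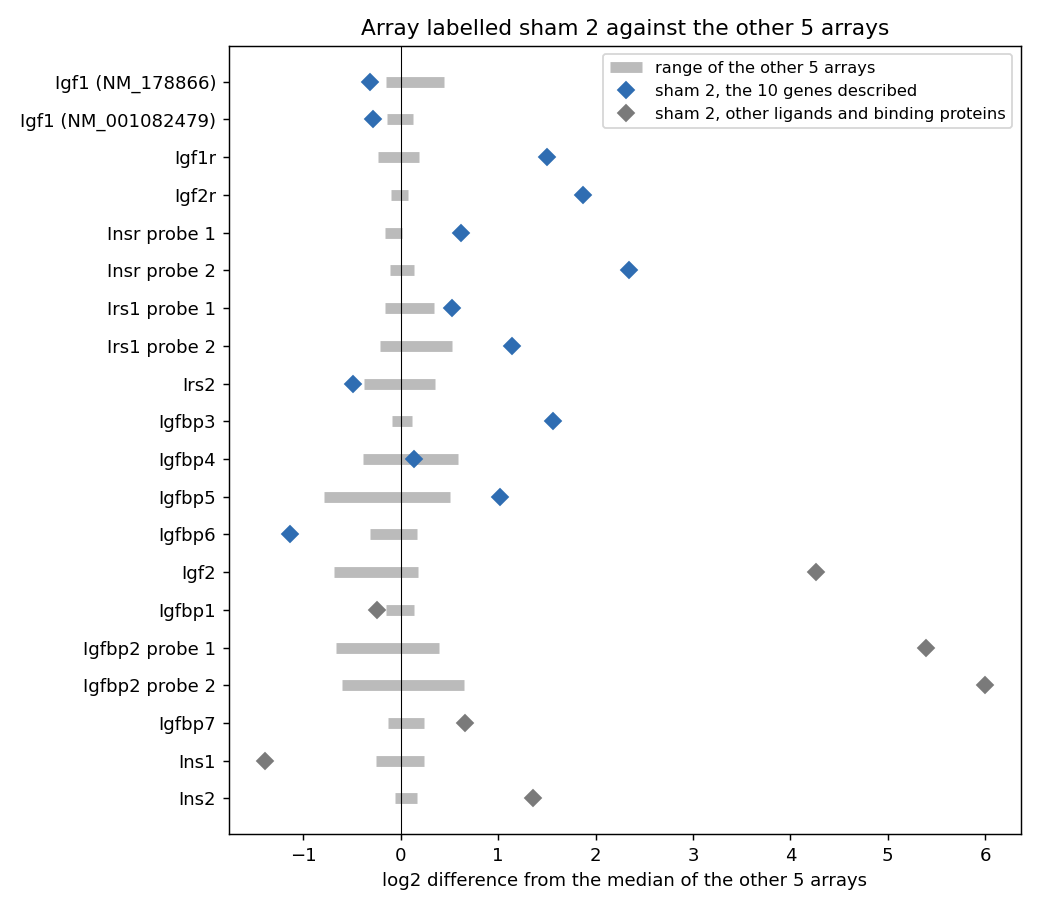
Log2 distance of the array labelled sham 2 from the median of the other 5 arrays for the member probes and for the 6 further ligand and binding protein genes, with the range of the other 5 arrays drawn around 0. Igf2 and Igfbp2 lie at 4.27 and above 5 log2 units as lower bounds, while the members lie between -1.14 and 2.34.

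Without the array labelled sham 2, Igfbp2 was higher in orchidectomized rats on both probes without passing the adjusted test. Its brighter probe differed by 0.62 log2 (SE 0.22, unadjusted p = 0.0310, adjusted p = 0.988 by limma), and its second by 0.60 (unadjusted p = 0.0851). All 3 orchidectomized values of the brighter probe lay above both sham values, while the difference was 0.13 on slide 2 and 0.35 within scan day 1, which leaves out sham 3. Leaving out sham 1 in its place gave 0.88. Igf2 differed by 0.38 log2 (SE 0.24, 95% interval -0.22 to 0.97), with -0.17 on slide 2 and 0.04 within scan day 1. Leaving out sham 1 as well gave 0.72, with sham 3, the lowest of the 5 arrays for Igf2, as the only sham array. Over the same 5 arrays all 10 choroid plexus markers had higher means in orchidectomized rats, with a median difference of 0.77 log2. Their mean log2 level was -3.08, -3.51 and -4.26 in orchidectomized 1 to 3 and -3.84 and -4.87 in sham 1 and sham 3. Over all tested probes 55.1% were lower. Of 4 ependyma markers 0 were higher (median -0.27 log2), of 6 meninges and fibroblast markers 4 (0.08) and of 6 oligodendrocyte markers 1 (-0.46). The part of these marker levels in the Igfbp2 and Igf2 values was not tested.

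Beyond the members, 119 pathway genes were listed by role, of which 101 had a probe and 98 were tested. None had an adjusted p under 0.05 by limma in either comparison. At an unadjusted p under 0.05 there were 0 higher and 1 lower on 6 arrays, where 0.731% of all tested probes passed. Without sham 2 there were 2 higher (Igfbp2 and the adaptor gene Shc3) and 1 lower, against 2.71%. These counts are near the background. The tested genes split into 53 higher and 45 lower on 6 arrays (median 0.03 log2) and into 46 and 52 without sham 2 (median -0.02). By role, without sham 2, the PI3K and Akt genes split into 11 higher and 9 lower, adaptors and negative regulators into 12 and 10, the mTOR branch into 9 and 6 and the Ras and MAP kinase branch into 7 and 9. Shc3, a neuronal Shc adaptor, read -2.87, -2.84 and -2.71 in orchidectomized rats and -3.21, -4.60 and -3.12 in sham rats. It differed by 0.36 log2 (unadjusted p = 0.0341, adjusted p = 0.988 by limma) without sham 2. Elk1, a transcription factor that MAP kinases activate, differed by 0.61 log2 (SE 0.38) on 6 arrays and by 0.23 without sham 2.

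FoxO factors and their targets are described apart because all their tested genes lay on 1 side in 1 of the comparisons. This choice was made from the values. Without the array labelled sham 2 all 8 tested genes of this list were lower in orchidectomized rats, from -0.70 to -0.04 log2 with a median of -0.37, none past the adjusted threshold, beside 55.1% of all tested probes that were lower. The -0.70 was that of Trib3, which is described below. On 6 arrays 6 of the 8 were lower, with a median of -0.15. The list had 13 genes, 10 of them with a probe. With normexp background correction the median without sham 2 was -0.08, with 7 of 8 lower, beside a median of 0.083 over all tested probes. Leaving out orchidectomized 3 as well gave 6 lower of 9 (median -0.17), and leaving out sham 3 gave 6 lower of 8 (median -0.26).

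Trib3, a pseudokinase that binds Akt, had the smallest p of the pathway list. It read -6.07, -5.95 and -5.95 in orchidectomized rats and -5.52, -4.86 and -5.06 in sham rats. All orchidectomized values were below all sham values, the array labelled sham 2 included. The difference was -0.84 log2 (SE 0.23, unadjusted p = 0.0116, adjusted p = 0.774 by limma) on 6 arrays. Without sham 2 it was -0.70 (SE 0.18, unadjusted p = 0.00799, adjusted p = 0.988 by limma), and it was -0.43 on slide 2 and -0.47 within scan day 1. The probe was dim, and with normexp background correction its difference was -0.18 log2 on 6 arrays and -0.08 without sham 2. Klf15, a transcription factor of fasting metabolism, read 0.56, 0.57 and 0.06 against 0.69, 0.83 and 0.86 and differed by -0.40 log2 on 6 arrays, also with separate groups (unadjusted p = 0.117, adjusted p = 0.774 by limma). Without orchidectomized 3, its lowest array, the difference was -0.23, and array weights gave -0.18. Stc2, a secreted inhibitor of the pappalysins, differed by -2.27 log2 (SE 0.97) without sham 2, and this rested on sham 1. Its values were -6.81, -6.35 and -6.96 in orchidectomized rats against -2.68 on sham 1 and -6.18 on sham 3. Leaving out sham 1 as well gave -0.52, normexp gave -0.78, and with sham 1 as the only sham array the difference was -4.02 (adjusted p = 0.0197 by limma, the spread taken from the orchidectomized arrays).

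**Figure D4:**
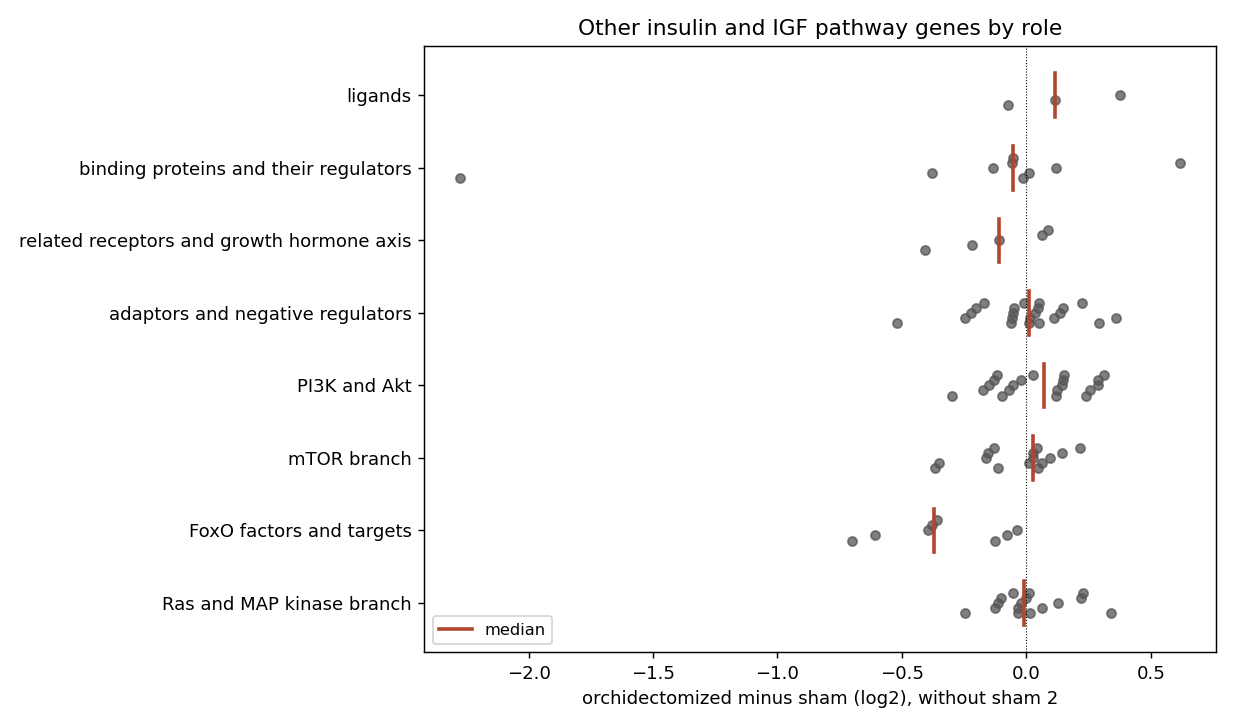
Difference between orchidectomized and sham means without the array labelled sham 2, in log2 units, for the tested pathway genes grouped by role, 1 point per gene (brightest probe) with a bar at each median. The 8 genes of the FoxO row lie between -0.70 and -0.04, and the far point at -2.27 is Stc2.

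Genes with the most similar profile over the 6 arrays were sought for 3 members among 12621 other named genes, by the root mean square of the difference after each was centred on its mean. For Igf1 these were Ranbp6 (0.021 log2) and Zc3h15 (0.032), for Igf1r Slc46a3 (0.041) and Coq10b (0.042), and for Insr Cspp1 and Hook1 (both 0.038). With 6 arrays, of which the array labelled sham 2 sets most of the profile of Igf1r and Insr, such likeness describes these arrays only.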

How the data were processed

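Cy3 labelling started from 200 ng of hippocampal RNA for each rat, per the labels' protocols. Per the file headers, arrays were read with Agilent Feature Extraction 10.5.1.1, and the deposited processed signal is a background-corrected intensity. Well-above-background, saturation and outlier flags are other values of the deposited files, used as the scanner software set them. The authors' deposited table holds log2 values equal to log2 processed signal plus a constant per array (-0.32 to 0.72, column medians 7.62 to 8.05), whose origin stays unknown.

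Of 44254 spots, 1377 control spots and outlier spots were left out, spots of a probe were averaged as log2, and each array's 75th percentile was subtracted. A flag held for a probe when at least 50% of its spots carried it. Accessions were matched without versions to the GRCr8 gene table, which named 18004 of 30367 probes. The files use another build, so no positions of probes are given.

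A probe was tested if every array of 1 group or the other had it well above background. Tests were two-sided with limma 3.58.1 (lmFit, eBayes) in R 4.3.3, with Benjamini-Hochberg adjustment over all tested probes. The fit was tested on simulated data. The brightest probe stood for a gene in counts by gene. Named genes were all members, the other ligands and binding proteins, the 2 pathway genes per direction with the smallest p in each comparison, and 2 genes of like profile for Igf1, Igf1r and Insr. Klf15 came in by this rule on 6 arrays. The members, lists and the comparison without sham 2 were chosen with earlier results of these data known. Deviations of same-numbered animals from their group means correlated at r = 0.03, -0.02 and -0.02. The sham means include the array labelled sham 2, so this cannot show whether the numbers pair animals. The main tests were unpaired. Alternatives were normexp (offset 50, on median spot signals in place of the planned mean signals), quantile normalization, median scaling, stricter and no brightness filter, the deposited values, array weights, a block (slide, scan day or replicate number), and leaving out each array. Their use on the pathway list and its named genes was chosen after seeing the data.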

Additional observations from a re-analysis of the deposited data

How the results depend on the processing

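No member probe passed the adjusted limma threshold under any alternative run. By each gene's brightest probe and outside the slide block, the smallest adjusted p by limma was 0.324 on 6 arrays (Irs1, array weights). The slide block is left aside because its contrast is orchidectomized 3 against sham 1 alone. On 6 arrays, 2 of 13 member probes had an unadjusted limma p under 0.05 with array weights and 1 without sham 3. All tested probes gave 2937 of 24634 and 650 of 24811 there. Without sham 2 no run outside the slide block had such a member probe. Over all probes, calls on 6 arrays went from 0 to 1 with quantile normalization and 13 with array weights. Without sham 2 they went from 0 to 2 with quantile normalization, 1 with median scaling, 18 with the deposited values and 10 with a scan day block. Leaving out a further array gave 0 to 251 calls without sham 2, with 22 without sham 1 and 251 without sham 3, and 0 throughout on 6 arrays. The replicate block gave 0 calls in both comparisons.

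On 6 arrays 24 of 160 recomputed gene differences changed sign, and Igf1 alone never did. Normexp gave Irs1 0.075 and Igfbp5 0.10, and the deposited values gave Igfbp5 0.0015. Array weights gave Igf1r 0.037, Igf2r 0.013, Insr 0.14, Igfbp3 0.10, Igfbp4 0.076 and Igfbp6 -0.087. The slide block gave Insr 0.024, Igfbp3 0.21 and Igfbp5 0.50. The scan day block gave Igf1r 0.013, Insr 0.12, Igfbp3 0.14, Igfbp5 0.015 and Igfbp6 -0.048. Leaving out 1 array at a time gave ranges of -0.35 to 0.043 for Insr, -0.33 to 0.090 for Irs2, -0.71 to 0.12 for Igfbp3, -0.49 to 0.41 for Igfbp5 and -0.15 to 0.50 for Igfbp6.

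Without sham 2, 11 of 150 changed sign, and those of Irs2, Igfbp3, Igfbp4 and Igfbp5 never did. The differences of Igfbp4 and Igfbp5 nevertheless fell to -0.020 and 0.015 when sham 3 was left out as well. The scan day block gave the same values. Normexp gave Igf2r 0.025 and Irs1 0.19, the deposited values Igf2r 0.0076, array weights Igf1 -0.039, the slide block Igfbp6 0.032 and the scan day block Igf1r 0.013. Leaving out a further array gave -0.056 to 0.24 for Igf1, -0.26 to 0.013 for Igf1r, -0.087 to 0.0011 for Igf2r, -0.038 to 0.12 for Insr and -0.39 to 0.084 for Irs1.

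Several of these runs on 6 arrays took little or nothing from sham 2. Its array weight was 0.028, against 0.458 to 5.690 for the others. The slide and scan day blocks returned the differences within slide 2 and within scan day 1, neither of which holds sham 2. Beyond this, the cause of the sign changes was not tested. Normexp moved the median of all probes to 0.078 (6 arrays) and 0.083, and median scaling moved it to -0.101 on 6 arrays. With 3 arrays against 2, the intervals of the members still allow changes down to 0.49-fold (Igfbp4) and up to 2.45-fold (Igfbp5). Other members had narrower intervals, such as Igf2r from 0.78-fold to 1.21-fold.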

Other observations

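On the array labelled sham 2, shares in the wider pathway were near those of all tested probes. Of 98 tested pathway genes, 16 were over 1 log2 unit above the median of the other 5 arrays on it and 29 were over 1 unit below, against 18.8% and 24% of all tested probes. By role, adaptors and negative regulators had 2 above and 8 below of 22, PI3K and Akt genes 2 and 5 of 20, the mTOR branch 0 and 4 of 15, and the Ras and MAP kinase branch 2 and 6 of 16. Binding proteins and their regulators had 4 above and 2 below of 9. These are values of 1 array, with no test.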
